A study of Mus musculus with 18 samples.

Results

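The transcriptional profile of the thyroid pool that received an absorbed dose of 32 Gy was compared with that of the non-irradiated control pool. Of 25697 non-control probes on the array, 10338 were kept, which are the probes with a detection p-value under 0.01 on all 3 arrays of 1 group or the other. Of these, 9150 were detected on all 3 arrays of both groups, 644 on all 3 arrays at 32 Gy only, and 544 on all 3 arrays at 0 Gy only. A further 948 probes lay just outside the rule, with detection on 2 arrays of a group and on all 3 of neither. The kept probes stand for 7395 of the 16593 genes with a named probe, and the brightest probe on average over all arrays stands for its gene.

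The study used 21 BALB/c nude mice in 6 groups, all female and 6 months old. The 32 Gy group was injected in the tail vein with 42 kBq of 211At, an alpha particle-emitting radiohalogen, in phosphate-buffered saline, and the controls were treated with an empty syringe in place of an injection. The arrays of the irradiated group are labelled 32.4 Gy, and the animals were killed after 24 h, so that the dose was delivered over the whole interval. Thyroids of a group were pooled before RNA extraction and 3 Illumina MouseRef-8 arrays were run per pool, so that n = 3 in every value below counts arrays of 1 RNA pool. P-values therefore set the difference between pools against the spread of repeated arrays of the same RNA, and differences between mice within a group are not covered.

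The thyroid follicle concentrates iodide, and to some extent the related halogen astatine, through the sodium/iodide symporter, and builds thyroid hormone on thyroglobulin. In the mouse neck the gland lies beside the submandibular, sublingual, and parotid salivary glands, strap muscle, brown and white fat, and the parathyroids. Alpha particles deposit their energy along short, dense tracks, and the DNA breaks they leave activate p53, which induces cell cycle inhibitors and apoptotic regulators.

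The labelled tissue was set against its defining transcripts before any comparison. Of 16 follicular genes with a probe, 12 were detected on no array at 0 Gy and 11 on no array at 32 Gy. The signal of Tg, thyroglobulin, was 104, 105, and 103 on the control arrays and 101, 120, and 98 at 32 Gy, not detected on any of the 6. Slc5a5, the sodium/iodide symporter, measured 105, 97, and 111 against 104, 104, and 104, also without detection, and the transcription factors Pax8, Nkx2-1, and Foxe1 and the enzymes Duox2 and Dio1 were likewise not detected. Tshr, the thyrotropin receptor, was detected on 1 control array and on none at 32 Gy. The summed signal of the 16 genes was 2208 to 2293 at 0 Gy and 2517 to 2624 at 32 Gy. Of the 3 follicular-list genes that were kept, only Kcnj16, a potassium channel subunit, was called (at least 1.4-fold higher, a call that was lost at 0.41 under 75th-percentile scaling), and Dpp4, a membrane peptidase, measured 519, 569, and 510 against 692, 801, and 724 without a call. Of the neighbouring endocrine tissues, 1 of 5 parathyroid genes and 1 of 12 C cell genes were detected on all 3 control arrays. Ret, the receptor tyrosine kinase of C cells and of salivary and nerve development, was detected at 32 Gy only and was at least 1.45-fold higher. Its call was lost under 75th-percentile scaling (0.58), and its other probe, detected on no array of either group, gave a log2 ratio of 0.079. By contrast, 24 of 27 white adipocyte genes were detected on all 3 arrays of both groups, and the transcripts of salivary gland and muscle are given below. In pooled tissue, fewer cells of a type and less RNA per cell cannot be told apart.

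A probe was called when its adjusted p-value in limma was under 0.01 and its change at least 1.5-fold, the thresholds of the study. At 32 Gy, 414 probes were higher (1.61% of all probes tested) and 230 were lower (0.895%) than in the controls. They stand for 308 genes that rose (1.86%) and 183 that fell (1.1%), and these percentages are the background for each gene list below. Of the called probes, 186 rose and 53 fell at least 2-fold, and 70 rose and 23 fell at least 4-fold. Another 1498 probes passed the adjusted p-value at less than 1.5-fold and are not counted as changed. Of the 644 called probes, 2 lay outside the kept set, Serpinb11 and a probe with no gene name. None of the 644 had overlapping array values between the groups, which was also the case for 2821 (11%) of all probes in the upward and 3381 (13.2%) in the downward direction. The median log2 ratio of all probes was −0.01. Raw signals had medians of 95.1 to 109.9 on the 6 arrays, and 10339 to 11281 probes were detected per array.

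The tissue kallikreins, a family of trypsin-like serine proteases stored in the granular convoluted ducts of the mouse submandibular gland, rose together. Of 14 genes with a probe, the kallikreins and Egf, all 14 were called higher and 0 lower, with a median log2 ratio of 4.12 and a range of 0.93 to 7.0. The median of all genes was −0.01. Of the 14, 7 were detected on all 3 arrays of both groups and 7 only at 32 Gy, so that the latter were kept through the group in which they were high. The summed signal of the list was 33175 to 37552 on the control arrays and 153787 to 154587 at 32 Gy. Since the kallikrein genes are related copies on chromosome 7, the probes of those that could be aligned are shown first. They were taken from the probe table among the supplements of the study, and capitals mark bases that differ from the Klk1b26 probe at the same aligned position.
Klk1b26: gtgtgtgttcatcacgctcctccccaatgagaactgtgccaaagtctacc
Klk1b24: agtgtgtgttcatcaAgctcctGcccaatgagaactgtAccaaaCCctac
Klk1b21: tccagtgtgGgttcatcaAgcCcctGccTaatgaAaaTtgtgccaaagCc
Klk1b8: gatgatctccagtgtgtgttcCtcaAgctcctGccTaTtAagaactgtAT
Klk1b5: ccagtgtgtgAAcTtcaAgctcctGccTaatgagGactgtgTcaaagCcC
Klk1b22: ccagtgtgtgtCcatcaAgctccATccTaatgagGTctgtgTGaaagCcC

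The Klk1b24 probe differed from the Klk1b26 probe at 5 of 49 aligned bases, and those of Klk1b21 and Klk1b8 at 8 of 46 and 8 of 39. The Klk1b5 and Klk1b22 probes differed at 10 and 11 of 47. Binding of transcripts of 1 copy to the probe of another was not tested, so that the share of each copy in these signals and the sum over the family are uncertain.

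Most of the genes also share a stretch near the transcription start that the choice of members did not use. RefSeq promoter windows (GRCm38.p6, 250 bases before to 50 after the start) were found for 12 of the 13 kallikrein genes, and 11 of the 12 hold the letters TTTAAA, which resemble a core promoter element and read the same on both strands. Of all 32851 promoters in the table, 4324 (13.2%) hold it. In the Klk1b21 window it does not lie within the last 100 bases before the start. The last 100 bases before the start are printed for 3 of them and for Klk1, the 1 window without the motif, with the motif in capitals.
Klk1b26 (chr7:44012578-44012677, plus strand): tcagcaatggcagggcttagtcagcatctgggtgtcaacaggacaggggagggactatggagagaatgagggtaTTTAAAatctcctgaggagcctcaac
Klk1b22 (chr7:44112573-44112672, plus strand): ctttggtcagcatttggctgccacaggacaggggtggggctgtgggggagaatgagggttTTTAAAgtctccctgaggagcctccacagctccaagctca
Klk1b9 (chr7:43975961-43976060, plus strand): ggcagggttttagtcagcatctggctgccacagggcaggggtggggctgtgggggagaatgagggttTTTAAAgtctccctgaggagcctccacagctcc
Klk1 (chr7:44225260-44225359, plus strand): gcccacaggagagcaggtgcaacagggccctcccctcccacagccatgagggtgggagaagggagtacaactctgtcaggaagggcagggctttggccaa

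The copies are duplicates of each other, so that the shared letters are not independent of their shared descent. A match is a run of letters and not a measured binding site.

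Klk1b26 had signals of 117, 117, and 103 on the control arrays and 14630, 13074, and 15277 at 32 Gy. It was detected on none of the control arrays, which makes it at least 108-fold higher (log2 ratio 7.0 ± 0.08, SE, adjusted p = 1.04e-29 in limma). Egfbp2, the protease that binds epidermal growth factor, measured 129, 112, and 106 against 10558, 9625, and 10981 and was at least 78.4-fold higher. For both, the lowest array at 32 Gy lay far above the highest control array.

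Klk1b22 went from 163, 135, and 169 to 9790, 11611, and 9724, with a log2 ratio of 6.06. Klk1b11 went from 167, 164, and 179 to 11358, 11060, and 11271, with a log2 ratio of 6.05. Other copies had a substantial signal in the controls already, and their ratios were smaller. Klk1, the true tissue kallikrein that releases kinins from kininogen, measured 11684, 15277, and 13074 against 24540, 25422, and 25959 (log2 ratio 0.93 ± 0.09, SE). Klk1b27 measured 10558, 11193, and 10698 against 36415, 36415, and 33949, where 36415 is the highest value of this normalization, so that its log2 ratio of 1.72 may be held down by that ceiling. Other probes of the same genes moved the same way by different amounts, with a log2 ratio of 4.51 for the second probe of Klk1b27 and 4.37 for that of Klk1b5, whose main probe gave 1.6.

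Egf, the growth factor made and stored in the same ducts, measured 446, 505, and 458 on the control arrays and 3276, 3557, and 3631 at 32 Gy (log2 ratio 2.89 ± 0.07, SE, adjusted p = 4.55e-22 in limma). The groups were well apart on every array.

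**Figure D1:**
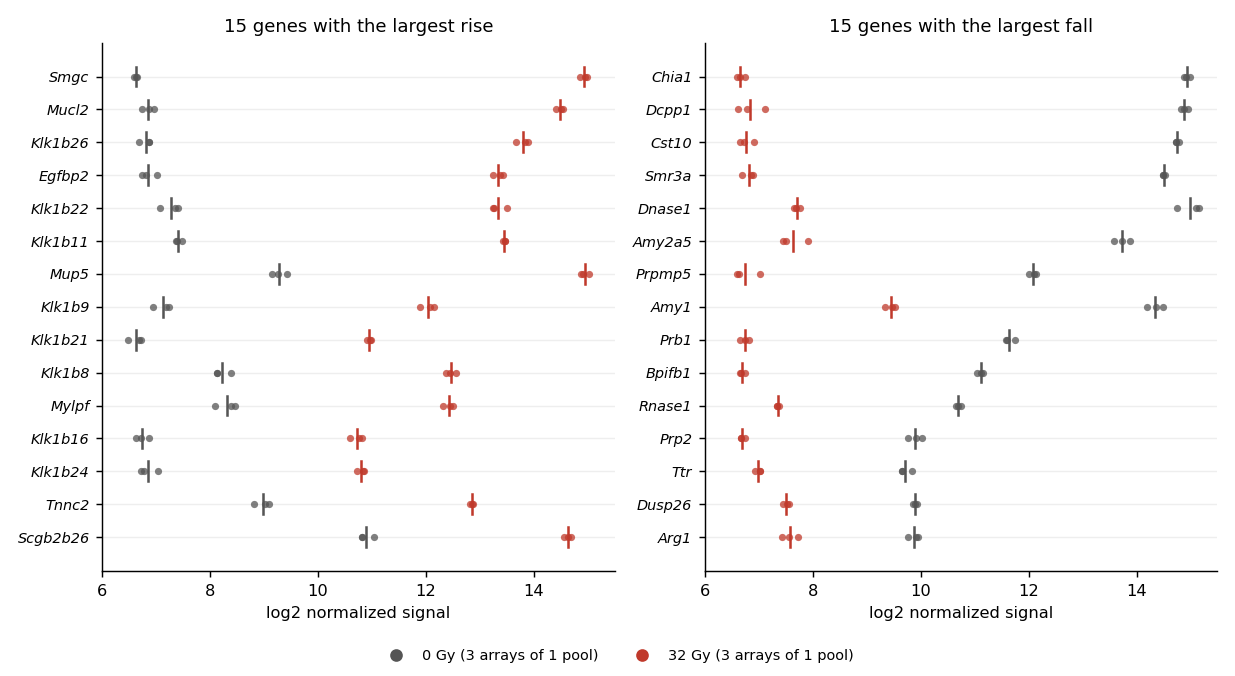
The 15 genes with the largest measured rise (left) and the 15 with the largest measured fall (right) in log2 ratio at 32 Gy against non-irradiated controls, whose order is not settled where 1 pool was not detected. Points are arrays and bars are means of log2 normalized signal; for each of the 30 genes the 3 arrays of 1 pool lie together and apart from the 3 of the other, and 9 of the 15 that rose are kallikreins, Egfbp2 included.

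Among 15 submandibular and sublingual mucins, androgen-binding, and urinary proteins, 5 were called higher and 4 lower, with a median of −0.06. Smgc is a mucin-like protein of the submandibular gland. Its signals were 96, 99, and 100 at 0 Gy, with no detection, and 31769, 29467, and 32497 at 32 Gy, at least 236-fold higher (log2 ratio 8.31 ± 0.07, SE, adjusted p = 1.99e-32 in limma). Mucl2, a further mucin-like protein, was at least 173-fold higher, from 106, 125, and 117 to 21887, 23332, and 23662. Both were thus absent from the detected transcripts of the control pool and close to the upper end of the scale in the irradiated pool.

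Mup5, a major urinary protein that carries pheromones in saliva and urine, measured 683, 566, and 613 against 30897, 30182, and 33214 (log2 ratio 5.67). Scgb2b26, an androgen-binding protein subunit of saliva, measured 2103, 1801, and 1800 against 25422, 24100, and 26526 (log2 ratio 3.74). Prol1, a proline-rich salivary protein, rose from 2866, 2957, and 2607 to 27486, 28852, and 28107 (log2 ratio 3.33).

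In the same list, transcripts of other salivary products fell by as much. Dcpp1, a demilune cell and parotid protein, measured 31769, 30182, and 28852 in the controls and 98, 139, and 110 at 32 Gy, where 1 array detected it (log2 ratio −8.05 ± 0.09, SE). Cst10, a cystatin that inhibits cysteine proteases, went from 27051, 27051, and 28107 to 106, 120, and 100 and was at least 208-fold lower. Smr3a, a submaxillary prohormone-like protein, went from 22977, 22977, and 23662 to 103, 118, and 116 and was at least 176-fold lower. These genes were among the brightest of the control pool and at the level of undetected probes in the irradiated pool.

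Most of the detected salivary digestive enzymes and nucleases fell. Of 16 genes with a probe, 0 were higher and 6 lower, with a median of −0.07 over the whole list, of which 7 genes were kept. The summed signal was 103975 to 113860 in the controls and 9470 to 10087 at 32 Gy. Chia1, the acidic chitinase of saliva and stomach, went from 30897, 32497, and 30182 to 107, 96, and 100, at least 237-fold lower (log2 ratio −8.27 ± 0.07, SE, adjusted p = 2.4e-32 in limma). Dnase1, which degrades extracellular DNA, fell from 36415, 27486, and 34983 to 207, 201, and 218 (log2 ratio −7.29 ± 0.09, SE). Amy1, salivary amylase, measured 18737, 21010, and 22977 against 648, 710, and 735 (log2 ratio −4.90 ± 0.12, SE) and remained detected on every array. Amy2a5, an amylase of the pancreatic type, fell from 13529, 12295, and 15162 to 242, 182, and 175. The sequences of the amylase genes are close, and their signals were not separated here.

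Of 17 parotid and demilune secretory genes, 1 was called higher and 8 lower, with a median of −0.18 and a summed signal of 107386 to 117792 in the controls and 77850 to 78804 at 32 Gy. Prpmp5, a proline-rich protein of parotid saliva, measured 4372, 4110, and 4495 against 99, 97, and 129, and the related Prb1, Prp2, and Prh1 were at least 24.3-fold, 7.25-fold, and 2.33-fold lower, without detection at 32 Gy. Bpifb1, a lipid-binding protein of mucosal secretions, was at least 16.8-fold lower. Bpifa2, the abundant parotid secretory protein of the same family, measured 32497, 31769, and 31769 against 7538, 8065, and 7538 (log2 ratio −2.05). Ltf, lactoferrin, which binds iron, was at least 3.24-fold lower. The 1 that rose was Pigr, the receptor that carries immunoglobulin A across epithelium, with a log2 ratio of 0.63 and a call that was lost without control array 3 (0.58) or irradiated array 3 (0.57). Pip, a prolactin-induced secretory protein, measured 33214, 30897, and 36415 against 34983, 33949, and 29467 and was not called, although both groups lay near the ceiling of the scale.

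Salivary secretory transcripts thus moved in both directions, some up and others down to the level of undetected probes. The amount of salivary tissue in each pool was not measured apart from these transcripts, and its part in the result was not tested.

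**Figure D2:**
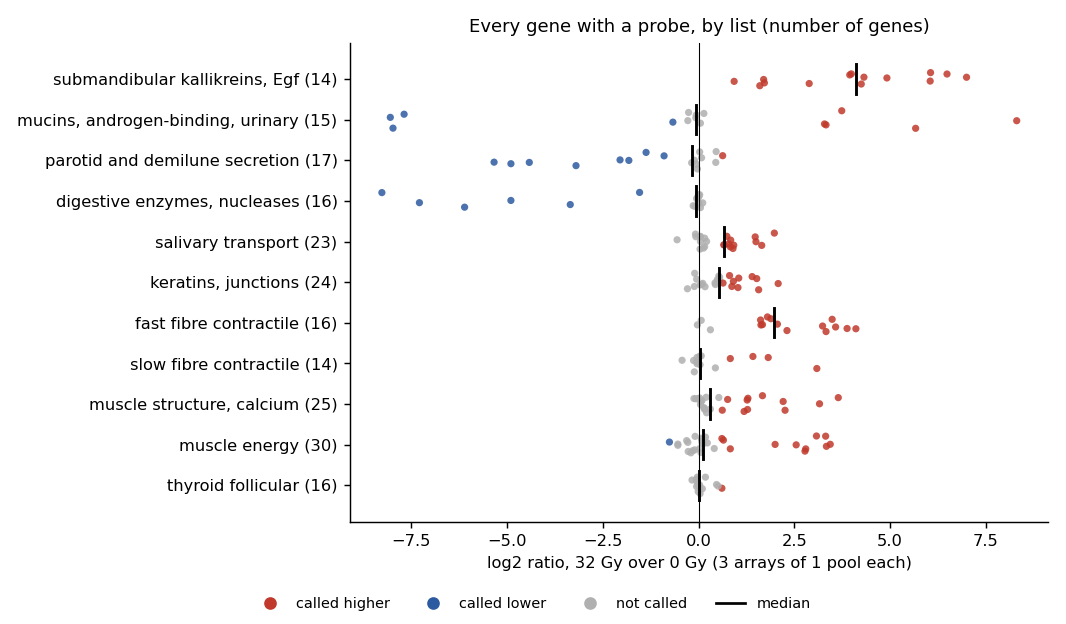
Log2 ratio of 32 Gy over 0 Gy for every gene with a probe in 11 gene lists, with the number of genes in parentheses. Points are genes, coloured by call, and bars are list medians: the kallikrein list has a median of 4.12 and the fast fibre list 1.97, the 2 enzyme and parotid lists hold most of the falls, and the follicular list lies at 0.02.

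Of 23 genes for ion and water transport in salivary ducts and acini, 12 were called higher and 0 lower, with a median log2 ratio of 0.66 and a summed signal of 16182 to 16831 in the controls and 28729 to 29243 at 32 Gy. Fxyd2, a regulatory subunit of the sodium pump, measured 741, 691, and 675 against 2779, 2784, and 2760 (log2 ratio 1.98). Kcnn4, a calcium-activated potassium channel, measured 302, 278, and 317 against 830, 796, and 885 (log2 ratio 1.48). All arrays at 32 Gy lay above all control arrays for both.

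The 3 subunits of the epithelial sodium channel, Scnn1b, Scnn1a, and Scnn1g, which reabsorbs sodium in ducts, had log2 ratios of 1.65, 0.83, and 0.67. Scnn1a was detected on no control array, and was at least 1.62-fold higher. Both Scnn1a and Scnn1g lost their calls under 75th-percentile scaling (0.56 and 0.48), and Scnn1g also without control array 3 (0.56). Ascl3, a transcription factor that marks duct cells, measured 127, 129, and 115 against 313, 370, and 365 (log2 ratio 1.5). Slc12a2, the sodium-potassium-chloride cotransporter that drives fluid secretion in acini, measured 5135, 5280, and 5582 against 10218, 9904, and 9790 (log2 ratio 0.90). Aqp5, the water channel of acinar cells, measured 1483, 1190, and 1168 against 2286, 1940, and 2397 (log2 ratio 0.79). Ano1, the calcium-activated chloride channel of acini, measured 350, 370, and 375 against 243, 270, and 230 and was not called.

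Of 24 epithelial keratins and junction genes, 10 were called higher and 0 lower, with a median of 0.53. Cldn10, a claudin that forms ion-selective pores between cells, measured 2272, 2107, and 2400 against 9289, 10016, and 9241 (log2 ratio 2.08). Krt14, a keratin of basal and myoepithelial cells, measured 342, 337, and 312 against 889, 885, and 841 (log2 ratio 1.40). Krt8, the keratin of simple epithelium, measured 993, 923, and 882 against 1336, 1270, and 1331. Its log2 ratio of 0.49 was below the threshold of 1.5-fold. Of factors of secretory and ductal epithelium, picked with their values known, Foxa1, which opens chromatin, was detected on no control array and was at least 2.96-fold higher, and Spdef, which directs secretory differentiation, measured 138, 137, and 142 against 245, 280, and 331. Bhlha15, Elf3, Elf5, and Sox9, with log2 ratios of 0.45, 0.54, 0.53, and 0.44, were not called. The 26 genes of endoplasmic reticulum folding and secretion, which serve any secretory cell, held 0 calls in either direction.

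Skeletal muscle transcripts, fast fibre contractile genes among them, formed the other large group that rose. Of 16 fast fibre contractile genes, 13 were called higher and 0 lower, with a median log2 ratio of 1.97. The summed signal was 8793 to 9119 in the controls and 50034 to 50974 at 32 Gy. Mylpf, the regulatory light chain of fast myosin, measured 272, 335, and 351 against 5610, 5123, and 5764 (log2 ratio 4.11 ± 0.08, SE, adjusted p = 1.69e-23 in limma). Tnnc2, the calcium-binding troponin of fast fibres, measured 546, 517, and 447 against 7431, 7538, and 7212 (log2 ratio 3.88). Pvalb, parvalbumin, which buffers calcium to speed relaxation, measured 620, 587, and 618 against 6925, 7703, and 7156 (log2 ratio 3.58). All 3 were detected on every array, so that the control pool held them as well, at lower signal.

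Tnni2 and Tnnt3, the inhibitory and tropomyosin-binding troponins of fast fibres, had log2 ratios of 3.49 and 3.24. Atp2a1, the calcium pump of the sarcoplasmic reticulum, measured 613, 537, and 572 against 5954, 5795, and 5594 (log2 ratio 3.33). Among the fast myosin heavy chains, Myh1 and Myh4 had log2 ratios of 2.31 and 1.8.

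Of 14 slow fibre genes, 4 were called higher and 0 lower, with a summed signal of 3333 to 3991 in the controls and 5276 to 5415 at 32 Gy. The median of 0.03 covers genes without signal, of which 9 were detected on no control array. Myh7, the slow myosin heavy chain, measured 108, 103, and 111 against 97, 108, and 110, without detection on any array, and Myl2 and Tnni1 were not detected either. Tnnt1, the slow troponin T, measured 165, 162, and 164 against 146, 176, and 153, and the groups overlapped. The 4 that rose included Csrp3, a Z-disc protein that senses stretch, which measured 118, 126, and 124 against 1007, 1066, and 1065 and was at least 7.9-fold higher, and Actn2, the actinin that anchors thin filaments, with 154, 159, and 166 against 530, 604, and 565.

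Of 25 genes of muscle structure, calcium release, and excitation, 11 were called higher and 0 lower, with a median of 0.31. Tcap, which caps titin at the Z-disc, measured 160, 134, and 149 against 1770, 1857, and 1917 (log2 ratio 3.65). Ttn, titin itself, measured 140, 136, and 135 against 644, 680, and 641 (log2 ratio 2.26).

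Of 30 genes of muscle energy metabolism, 11 were higher and 1 lower, with a median of 0.10. Mb, myoglobin, which stores oxygen, measured 447, 452, and 374 against 4289, 3943, and 4419 (log2 ratio 3.32). Ckmt2, the mitochondrial creatine kinase of muscle, measured 146, 142, and 141 against 1388, 1623, and 1365 (log2 ratio 3.34). Cox6a2, the muscle isoform of a cytochrome c oxidase subunit, measured 237, 217, and 228 against 2546, 2478, and 2354 (log2 ratio 3.44). Enzymes of the same pathways that are not restricted to muscle were not called where shown here. Gapdh, a glycolytic enzyme, had a log2 ratio of −0.20 and Aldoa, an aldolase, −0.09. The 1 gene that fell was Ppp1r3c, which targets a phosphatase to glycogen, from 5097, 4702, and 5265 to 3035, 2815, and 3035. The amount of muscle in each pool was not measured apart from these transcripts, and its part in the result was not tested.

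The lists of radiation-response genes held few calls. Of 32 p53 target genes, 1 was called higher and 0 lower, with a median of 0.04, and of 34 genes of DNA damage sensing and repair, 0 were called in either direction, with 9 at an unadjusted p under 0.05 in limma, where 10.5% of all genes passed upward and 13.7% downward. Against the background of 1.86% of genes called higher, the p53 count of 1 in 32 calls does not stand apart. At an unadjusted p under 0.05 in limma, however, 9 of the 32 p53 targets passed upward and 3 downward, against those same shares of all genes. Ccng1, cyclin G1, had a log2 ratio of 0.30, and its other probes gave 0.52 and 0.45, all below 1.5-fold. Cdkn1a, the cyclin-dependent kinase inhibitor p21, measured 360, 407, and 418 in the controls and 502, 583, and 505 at 32 Gy. The groups did not overlap, with a log2 ratio of 0.42 and an adjusted p of 0.000224 in limma, but the change was below 1.5-fold, and its other probes gave 0.16 and 0.073 without a call. Mdm2, the ubiquitin ligase that degrades p53, measured 801, 804, and 790 against 849, 843, and 799, and the groups overlapped.

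The called p53 target was Trp53inp1, a regulator of p53-dependent cell death, with 162, 149, and 230 against 243, 298, and 367 (log2 ratio 0.75 ± 0.17, SE, adjusted p = 0.00261 in limma). Its spread was the widest of the genes shown for this list, the call was lost without control array 1 or 2 (0.69 and 0.63) and without irradiated array 2 or 3 (0.76 and 0.60), and its other probe gave a log2 ratio of 0.32. Gadd45a and Gadd45g, stress sensors of the Gadd45 family, had log2 ratios of 0.56 and 0.50, below the threshold. Gadd45a was called higher without control array 1 or 3 (0.60 and 0.59) or irradiated array 1 (0.62). It was also called under another normalization of the raw signals (0.78), while its other probe gave 0.24 without a call. Phlda3, which inhibits Akt at the membrane, measured 3014, 2788, and 2683 against 1963, 1837, and 1876, with a log2 ratio of −0.58 that lay just short of the call, and it was called lower under other scalings (−0.72 with the 75th percentile).

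Of 36 cell cycle genes, 1 was called, Ccnd2, cyclin D2, which drives entry into the cycle, from 331, 356, and 361 to 550, 500, and 557, with a call that was lost without control array 1 (0.58) and under 75th-percentile scaling (0.51). Of 28 immediate early genes, 1 was higher and 1 lower. Egr1, an early growth response transcription factor, measured 1991, 2074, and 1935 against 945, 968, and 918 (log2 ratio −1.08). Fos, in contrast, measured 217, 274, and 212 against 203, 205, and 237, and the groups overlapped.

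Of 28 genes of the ATF4 amino acid response, 1 was higher and 2 lower. Chac1, which degrades glutathione, went from 913, 909, and 903 to 462, 460, and 457, and Nupr1, a stress-induced chromatin protein, from 3214, 3312, and 3161 to 5635, 5505, and 5084. Of 21 heat shock genes, Hspb6 and Cryab, small chaperones that are abundant in muscle, rose (log2 ratios 1.57 and 0.93), and Hsph1 and Stip1, a chaperone and a cochaperone, fell (−0.71 and −0.68). Inflammation, with 29 genes, held 2 higher, the receptors Tnfrsf19 and Tnfrsf21, whose calls were lost under 75th-percentile scaling (0.40 and 0.57) and, for Tnfrsf19, without array 2 of either group (0.58 and 0.54), and 1 lower, Lbp, which binds bacterial lipopolysaccharide (log2 ratio −1.47). The lists of interferon response, macrophages, and MHC class II held 0 calls each. So did the 16 T cell genes, but 15 of them were detected on no control array and 15 on no array at 32 Gy.

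**Figure D3:**
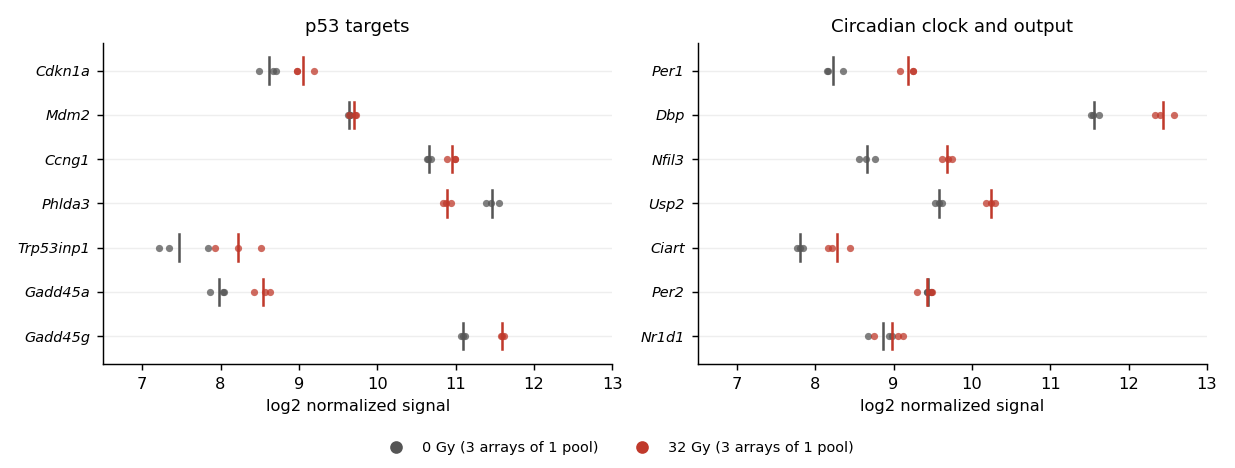
Log2 normalized signal of p53 target genes and Gadd45g, a gene of the immediate early list (left), and 7 circadian genes (right) in non-irradiated controls and at 32 Gy. Points are arrays and bars are means: Mdm2 and Per2 lie at the same level in both pools, Cdkn1a differs by 0.42, and Per1, Dbp, Nfil3, and Usp2 are higher at 32 Gy on every array.

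Several circadian genes were higher at 32 Gy. Of 21 genes of the clock and its output, 4 were called higher and 0 lower, with a median of 0.11. Nfil3, a repressor in antiphase to the D-box activators, measured 435, 401, and 377 against 856, 788, and 826 (log2 ratio 1.03 ± 0.07, SE, adjusted p = 1.32e-11 in limma). Per1, a period repressor that also responds to glucocorticoids, measured 288, 327, and 284 against 541, 606, and 607 (log2 ratio 0.97). Dbp, a D-box activator driven by the clock, measured 3141, 2929, and 2977 against 5164, 6109, and 5394 (log2 ratio 0.88). Usp2, a rhythmic deubiquitinase, rose from 738, 766, and 788 to 1257, 1209, and 1164, while another of its probes gave a log2 ratio of 0.066 without a call. Other clock genes did not follow. Per2 measured 686, 690, and 711 against 715, 632, and 719, and Nr1d1, the repressor Rev-erb alpha, 410, 491, and 507 against 557, 429, and 534, with overlap in both. The hours at which the pools were taken are not given in the sources used here.

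Among 25 glucocorticoid-responsive genes, 1 rose and 2 fell, while Fkbp5 and Tsc22d3, commonly used reporters of the receptor, had log2 ratios of 0.55 and 0.50, below the threshold. Of 30 genes of insulin signalling, 1 was higher and 3 lower. Irs2, the insulin receptor substrate that is induced on fasting in mouse liver, measured 264, 273, and 287 against 970, 948, and 945 (log2 ratio 1.8 ± 0.07, SE, adjusted p = 4.48e-17 in limma). Irs3, Grb14, and Gsk3b lay just past the threshold at −0.61, −0.61, and −0.59, and the calls were lost without control array 1 (−0.58, −0.50, and −0.57) and under 75th-percentile scaling (−0.57, −0.41, and −0.52).

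Few genes of fat metabolism were called, with 1 of 27 white adipocyte genes lower and 0 of 17 of cholesterol synthesis in either direction. The following genes were picked with their values known. Srebf1, the transcription factor that induces fatty acid synthesis, measured 779, 885, and 717 against 455, 468, and 394 (log2 ratio −0.85). Dgat2, which makes triglyceride, measured 13995, 14266, and 14266 against 9081, 8534, and 9289 (log2 ratio −0.66). Angptl8, an insulin-induced inhibitor of lipoprotein lipase, measured 1197, 1106, and 1033 against 525, 510, and 511 (log2 ratio −1.11). Mfsd2a, which carries lysophosphatidylcholine into cells, rose from 182, 199, and 207 to 924, 1042, and 780 (log2 ratio 2.22), as did Ppargc1a, a coactivator of mitochondrial biogenesis (log2 ratio 0.83).

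The lists of mitochondrial, fat, and vessel genes lay slightly below 0 with few calls. Of 37 genes of the citric acid cycle and fatty acid oxidation, 0 were higher and 3 lower, with a median of −0.23, and 26 passed an unadjusted p of 0.05 downward in limma, set against the 13.7% of all genes given above. The 3 were Ogdh, Dlst, and Acads, of which the first 2 are subunits of the oxoglutarate dehydrogenase complex and the last oxidises short-chain fatty acids, with log2 ratios of −0.73, −0.60, and −0.64. Dlst lost its call without control array 1 (−0.55) or irradiated array 3 (−0.53). Complex I, with 34 genes, had a median of −0.18 and 0 calls. White adipocyte genes had a median of −0.24, 0 higher and 1 lower of 27, and brown adipose genes a median of −0.18, 1 higher and 0 lower of 16. Endothelial genes had a median of −0.25 and 1 call of 24, Aqp1, a water channel of capillaries, from 3446, 3497, and 3405 to 2235, 2260, and 2402, a call lost without control array 2 (−0.58) or irradiated array 1 or 2 (both −0.57). Its other 2 probes were called lower at −0.67 and −0.66. At an unadjusted p under 0.05 in limma, 19 complex I, 15 white adipocyte, 9 brown adipose, and 16 endothelial genes passed downward. Upward, the counts were 0, 3, 2, and 3, so that these lists shared small falls that the calls do not show.

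Summed signals of other cell types were as follows. The white adipocyte sum was 181353 to 189836 in the controls and 167554 to 170211 at 32 Gy, the endothelial sum 20275 to 21607 against 16378 to 17242, and the macrophage sum 7559 to 7716 against 7738 to 7896. The smooth muscle and pericyte sum, which includes Tpm2, a tropomyosin that skeletal muscle also expresses (log2 ratio 3.32), was 7056 to 7528 against 10899 to 11618. The muscle energy sum, at 98978 to 99933 against 97684 to 99625, overlapped between the groups. The erythrocyte sums, at 32566 to 37271 against 34897 to 36518, overlapped. The part of these differences in the results above was not tested.

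Several called genes belonged to none of the main groups. Gpx3, the secreted glutathione peroxidase, measured 9289, 8784, and 9135 against 5109, 5338, and 4542 (log2 ratio −0.86). Txndc5, a disulfide isomerase, measured 1498, 1528, and 1365 against 607, 681, and 580 (log2 ratio −1.23). Arg1, arginase, which splits arginine to urea and ornithine, measured 960, 994, and 866 against 172, 189, and 211 (log2 ratio −2.30).

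Ttr, transthyretin, which carries thyroxine, measured 808, 803, and 915 against 122, 130, and 130, where 1 array detected it (log2 ratio −2.72). Dusp26, a dual-specificity phosphatase, measured 931, 973, and 946 against 189, 174, and 183 (log2 ratio −2.38). Wfdc2, an epithelial protease inhibitor, rose from 806, 894, and 775 to 3668, 3895, and 3807 (log2 ratio 2.20). In all 6 genes the arrays of the pools were well apart.

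To see where 32 Gy differed from the doses below it, it was compared with the pools at 11 Gy (labelled 11.2 Gy, 14 kBq) and 1.4 Gy (1.8 kBq), whose arrays were normalized together with those at 0 and 32 Gy. Against 11 Gy, 145 probes were higher (0.564%) and 75 lower (0.292%) at 32 Gy, which are 98 (0.591%) and 57 (0.344%) genes. Higher calls were 65.9% of these probes, and 82.8% when the signals were scaled to the 75th percentile instead. Against 1.4 Gy, 653 probes were higher (2.54%) and 276 lower (1.07%), which are 506 (3.05%) and 206 (1.24%) genes. Higher calls were 70.3% of these probes, against 43.0% with the same scaling and 60.0% with neqc, a background correction and normalization of the raw signals. These comparisons share the arrays at 32 Gy with the comparison above. The pools at 0.05 and 0.5 Gy have another signal distribution after normalization and were not compared.

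Muscle genes set 32 Gy apart from 11 Gy. Of the 16 fast fibre genes, 10 were higher and 0 lower at 32 Gy than at 11 Gy, with a median log2 ratio of 0.81 and a summed signal of 25887 to 26458 at 11 Gy, and 8 of the 25 structural and 8 of the 30 energy genes were higher. Myoglobin (Mb) measured 903, 965, and 944 at 11 Gy and 428, 436, and 484 at 1.4 Gy. The 32 Gy arrays thus lay above those of the other pools compared (32 Gy over 11 Gy, log2 ratio 2.17). Csrp3 measured 203, 229, and 180 at 11 Gy and 156, 153, and 158 at 1.4 Gy (32 Gy over 11 Gy, log2 ratio 2.36). Mylpf measured 1800, 1876, and 1807 at 11 Gy and 1262, 1242, and 1203 at 1.4 Gy (32 Gy over 11 Gy, log2 ratio 1.59). The order of the 4 pools was 0, 1.4, 11, and 32 Gy for Mylpf and Csrp3, while for Mb the arrays at 0 and 1.4 Gy overlapped. This order does not cover the lower doses of the study, which were not compared here. The paper describes the profile of Mylpf as u-shaped, with high up-regulation at its lowest dose as well as at 32 Gy. For Mylpf, the order of the 4 pools is therefore not a steady rise over all doses of the study.

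Of 16 salivary digestive enzymes and nucleases, 0 were higher and 5 lower at 32 Gy than at 11 Gy, with a median log2 ratio of −0.13 over the whole list and a summed signal of 20074 to 20810 at 11 Gy and 11098 to 11994 at 1.4 Gy. Chia1 measured 7738, 7302, and 7363 at 11 Gy and 106, 105, and 94 at 1.4 Gy, and only the latter lay at the level of 32 Gy. Dnase1 measured 2090, 1989, and 2023 at 11 Gy and 120, 105, and 105 at 1.4 Gy, below the arrays at 32 Gy. The pool at 11 Gy was thus closer to the controls for these genes than the pools at 1.4 and 32 Gy, and their levels did not follow the absorbed dose.

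The kallikreins were lower at 32 Gy than at 11 Gy in 9 of 14 genes and higher in 0, with a median log2 ratio of −0.63, and higher than at 1.4 Gy in 14 of 14, with a median of 3.38. Klk1b26 measured 20182, 20444, and 19945 at 11 Gy and 1137, 1226, and 1263 at 1.4 Gy. Egf measured 6336, 6539, and 6449 at 11 Gy, above the arrays at 32 Gy (32 Gy over 11 Gy, log2 ratio −0.89). The summed signal of the list was 189349 to 194134 at 11 Gy and 34196 to 36152 at 1.4 Gy, which overlapped the range of the controls. The highest level of the list was thus at 11 Gy and not at 32 Gy.

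**Figure D4:**
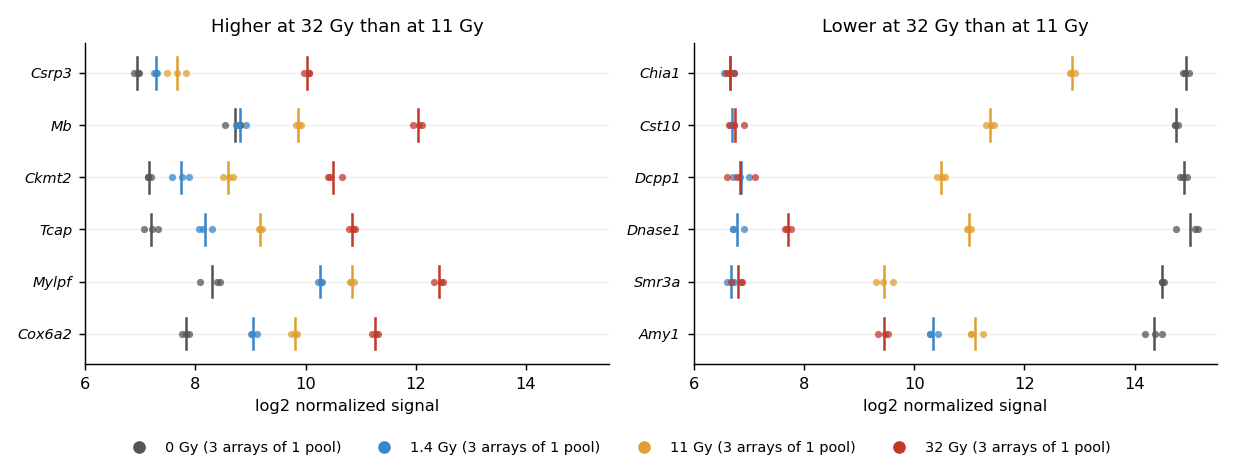
Log2 normalized signal of 6 muscle genes that were higher (left) and 6 salivary genes that were lower (right) at 32 Gy than at 11 Gy, with the pools at 0 and 1.4 Gy from the same normalization. Points are arrays and bars are means: of these pools, the muscle genes are highest at 32 Gy, and the salivary genes are highest at 0 Gy, lower at 11 Gy, and lower still at 1.4 and 32 Gy.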

How the data were processed

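Total RNA of each thyroid pool was run by the authors on Illumina MouseRef-8 arrays, read with Illumina BeadScan. The deposited intensity values are on the linear scale, as raw signals and after the authors' quantile normalization in the BioArray Software Environment, and whether background was subtracted is not stated. Each value has a deposited detection p-value, and those in the 2 tables differ by up to 0.0985, those of the normalized table being used here. The normalized arrays form 2 sets with a distribution of their own, and those at 0, 1.4, 11, and 32 Gy share 1 set. The series table repeats them (largest difference 0). Left out were 815 control probes. Of the other probes, 23978 have 1 gene in the probe table used, 0 several, and 1719 none. The number of arrays limits the precision, and with 1 RNA pool per group the spread between pools of the same dose is not measured.

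Tests ran on log2 of the normalized signal in limma 3.58.1 under R 4.3.3, with a mean per group over all 18 arrays, and moderated statistics, and p-values of all 25697 probes were adjusted together by the method of Benjamini and Hochberg. Ratios are log2 differences of means, with the moderated standard error. The authors' test is not named in the sources used here, and calls of the study were not used. The fit was tested on simulated data. Python 3.11.15 with matplotlib 3.10.9 made the figures. For a probe detected on no array of the dimmer group, the fold is a bound, computed per array against the higher of the lowest detected signal and the probe's own signal.

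Named are the 15 genes with the largest rise and the 15 with the largest fall, up to 4 called and up to 3 uncalled genes of each of 50 gene lists, members of the salivary, muscle, and thyroid lists, and genes whose values were already known. The members and lists were chosen with earlier results of these data known. Alternatives were other sets of arrays in the fit, 3 other normalizations, 2 filters on low values, log2(signal + 32), a 2-fold threshold, a replicate block, and leaving out each array. The last 2 were added for the gene lists after seeing the data.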

Additional observations from a re-analysis of the deposited data

Results flagged for a closer look

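For 12 genes the change at 32 Gy differed from that at 11 Gy by limma's test of the difference between the 2 pools, and these were looked at again because both doses share the same controls and normalization. As log2 ratios of 32 Gy over 11 Gy, the muscle genes were higher at 32 Gy, with 2.36 for Csrp3, 2.17 for Mb, 1.90 for Ckmt2, 1.67 for Tcap, 1.59 for Mylpf, and 1.46 for Cox6a2. The salivary genes were lower at 32 Gy, with −6.21 for Chia1, −4.62 for Cst10, −3.66 for Dcpp1, −3.29 for Dnase1, −2.64 for Smr3a, and −1.65 for Amy1. Chia1, Cst10, and Smr3a were detected on no array at 32 Gy, so that their values are bounds, at least 56.7-fold, 20.2-fold, and 5.32-fold lower, and Dcpp1 was detected on 1 array there. The arrays of the 2 pools did not overlap for these genes. They were named with their values known, so that the number of 12 is no measure of how common such differences are, and the part of unequal shares of salivary gland and muscle in the pools was not tested.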

How the results depend on the processing

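For 32 Gy against 0, 11, and 1.4 Gy, 644, 220, and 929 probes were called. With neqc on the raw signals the counts became 1150, 423, and 1632, and at a threshold of 2-fold 239, 48, and 346. Leaving out 1 array at a time gave 646 to 677, 216 to 243, and 925 to 995. The cause of the higher counts with neqc was not tested. The other alternatives kept each count within 1.5 times, among them joint quantile normalization (538, 188, and 787) and 75th-percentile scaling (537, 198, and 1119). The kallikrein list kept 14 genes called higher and the fast fibre list 13 under each alternative run for lists, while small list counts moved, with 3 citric acid cycle and fatty acid oxidation genes called lower becoming 6 and 1 white adipocyte gene becoming 4 under 75th-percentile scaling.

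With the replicate number as a block, 646, 222, and 932 probes were called, and none of the 406 named genes changed its call. Arrays with the same number deviated together with r of 0.110, 0.094, and 0.185 over 12494 probes, and over the 10338 kept probes each of the 6 arrays correlated best with its own number. The labels give the numbers no meaning beyond the array, so that they were not taken to pair the arrays.

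Over the named genes and their alternatives, 5306 of 5497 values kept direction and call, 134 lost the call, 46 gained it, and 11 turned. The 11 are other probes of a called gene, with log2 ratios of −0.075 for Ryr1, −0.13 for Kcnk5, −0.0040 for Tnfrsf19, −0.026 for Myot, −0.098 and −0.023 for Rgs1, −0.060 for Mybpc1, 0.059 for Ltf, −0.12 for Nrap, −0.15 for Slc12a2, and −0.032 for Acpp, and those probes were detected on no array of either group. Of 82 other probes of named called genes, 42 gave the same call, 40 no call, and 0 the opposite call. Only 20 of the 40 were detected on no array of either group. Detected probes without a call gave 0.50 for Myh1 and 0.35 for Fxyd2, where the main probes gave 2.31 and 1.98. Probes near the lowest detected signal give only a bound, and probes near the highest value of the scale, such as those of Klk1b27 and Pip, can hide a difference.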

Other observations

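Further lists, which can share genes with those above, held a few calls. Of 32 genes of potassium channels and transport, 6 were higher and 0 lower, with a median of 0.01. Of 18 Schwann cell and nerve genes, 3 were higher and 0 lower, among them Ngfr, a neurotrophin receptor that also marks myoepithelial cells, at 135, 116, and 130 against 199, 199, and 231 (log2 ratio 0.72, and 0.50 without a call under 75th-percentile scaling). Of 12 carbonic anhydrases, which interconvert carbon dioxide and bicarbonate, Car12 was higher, at 243, 226, and 284 against 493, 627, and 571 (log2 ratio 1.17), and Car4 was lower, at 502, 607, and 591 against 381, 320, and 382 (log2 ratio −0.65, and −0.57 without irradiated array 2, which ended its call). Of 32 antioxidant genes, 2 were higher and 1 lower. Gsta3, a glutathione transferase, measured 756, 687, and 916 against 1546, 1510, and 1586 (log2 ratio 0.99). The 42 ribosomal protein genes and the 30 collagen and matrix genes held 0 calls.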
